A study of Sus scrofa with 6 samples.

Results

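Mitochondrial ribosomal proteins are nuclear-encoded proteins of the ribosome that works inside mitochondria, and their transcripts were measured here in porcine 2-cell embryos. Every row of the expression table whose gene symbol begins with MRPL or MRPS followed by a number was taken, which gave 63 of 17678 genes, each with a single row. By their known positions 40 of them belong to the large subunit and 22 to the small subunit. The last, MRPS36, is listed in the RefSeq annotation under the same gene identifier as KGD4, and its product is now known as a part of the 2-oxoglutarate dehydrogenase complex and not of the mammalian mitochondrial ribosome.

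The embryos came from oocytes matured in vitro, from peripubertal ovaries of slaughtered Landrace × Yorkshire × Duroc crossbred pigs. At metaphase II the oocytes received either a non-specific control siRNA (NC) or siRNAs to SIN3A (KD), for which 3 different target sites were designed, and all were then activated without sperm. Polyadenylated RNA was sequenced 32 h after activation, in 3 NC and 3 KD libraries of 20 pooled embryos each. Being parthenogenetic, the embryos of both groups lacked a paternal genome, and the siRNA was the only stated difference between the groups. SIN3A is the scaffold of a histone deacetylase corepressor complex.

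The mitochondrial ribosome translates the few proteins that mitochondrial DNA encodes, all of them subunits of the oxidative phosphorylation complexes. Its RNAs are mitochondrial, but all of its proteins are made in the cytosol from nuclear genes and imported, and many of them have no counterpart in bacterial ribosomes. Oocytes and cleavage-stage embryos hold very many mitochondria, inherited from the mother, and at this stage depend mostly on maternal messenger RNA. The comparison of NC with KD asks which transcripts changed when SIN3A was depleted, before the 2-cell block that the study examined.

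The promoters of the members were searched for 4 short motifs, none of which was present in most of them. RefSeq (Sscrofa11.1) supplied a window of 250 bases before to 50 bases after the start of the longest mRNA for 59 members. The ETS core CCGGAAG, searched on both strands, was present in 17 of these 59 windows (28.8%), against 10.6% of 19544 windows of the same length and 14.4% of the 9675 windows of genes tested here. The YY1 motif AAGATGGCG was present in 4 windows (6.78%), against 1.51% of all windows and 2.22% of those of tested genes. The E-box CACGTG was present in 8 windows (13.6% against 7.47% and 8.98%), and the NRF1 motif GCGCATGCG in 3 (5.08% against 1.83% and 2.61%). The median GC content of the members' windows was 57.0%, and that of the windows of tested genes was 62.3%. These are counts of matching letters and were not tested as binding sites. The windows below show matches in members to which the measurements return, 5′ to 3′ on the strand of the gene, with the matched letters in capitals.
MRPL16, chr2:11689493-11689522, plus strand, an ETS core on the reverse strand from the first base of the transcript: ggaccggtgcgaacgcaaCTTCCGGccaga
MRPL18, chr1:7589487-7589516, minus strand, an ETS core 152 bases before the start: taacggctcgcgccctccCCGGAAGtttgt
MRPL27, chr12:26670164-26670193, minus strand, an ETS core 54 bases before the start: tcaaccgccacgtaagacCCGGAAGtagat
MRPL27, chr12:26670123-26670152, minus strand, an ETS core 13 bases before the start: ggaagcagatttctgagaCCGGAAGcaagt
MRPL46, chr1:191322002-191322031, plus strand, a YY1 motif at base 31 of the transcript: gcgttgtgggaaggttgaAAGATGGCGgcg
MRPS30, chr16:29111967-29111996, plus strand, a YY1 motif at base 39 of the transcript: ggcccggaatgctgggtaAAGATGGCGgcg
MRPS36, chr16:47386291-47386320, plus strand, an E-box 109 bases before the start: aacaatggaaaaCACGTGgatcagtttcta

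MRPL46 and MRPS11, a large-subunit and a small-subunit gene, lay head to head on chromosome 1. MRPS11 ran from 191310547 to 191321951 on the minus strand and MRPL46 from 191321990 to 191331320 on the plus strand. Their annotated starts were 38 bases apart, so the YY1 match printed for MRPL46 was also the match counted for MRPS11. The other members were scattered: 60 could be placed on 17 chromosomes, with at most 8 on a single one, chromosome 12. RefSeq gave an mRNA length for 61 members, whose genes had 1 to 12 exons and coding lengths of 288 to 1341 bases.

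In NC embryos the transcripts of the mitochondrial ribosomal proteins were above the middle of the transcriptome, but their levels were far from equal. All values are the normalized abundances deposited by the authors. Levels of genes are compared after division by the length of the longest RefSeq mRNA, as abundance per kb, except where undivided abundance is named. The median over 61 members was 61.9 per kb, against 22.1 per kb over 13356 genes with a length, 60.5 per kb over 45 cytosolic ribosomal protein genes and 74.7 per kb over 41 nuclear-encoded oxidative phosphorylation subunits. Of the 61 members, 48 were above the median of all genes. The median was 53.4 per kb for the large subunit and 67.2 per kb for the small subunit. It was 61.9 per kb for members with a bacterial homologue and 56.0 per kb for those specific to mitochondria. MRPS18A and MRPS18B, although relatives of bacterial S18, were counted among the latter.

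**Figure D1:**
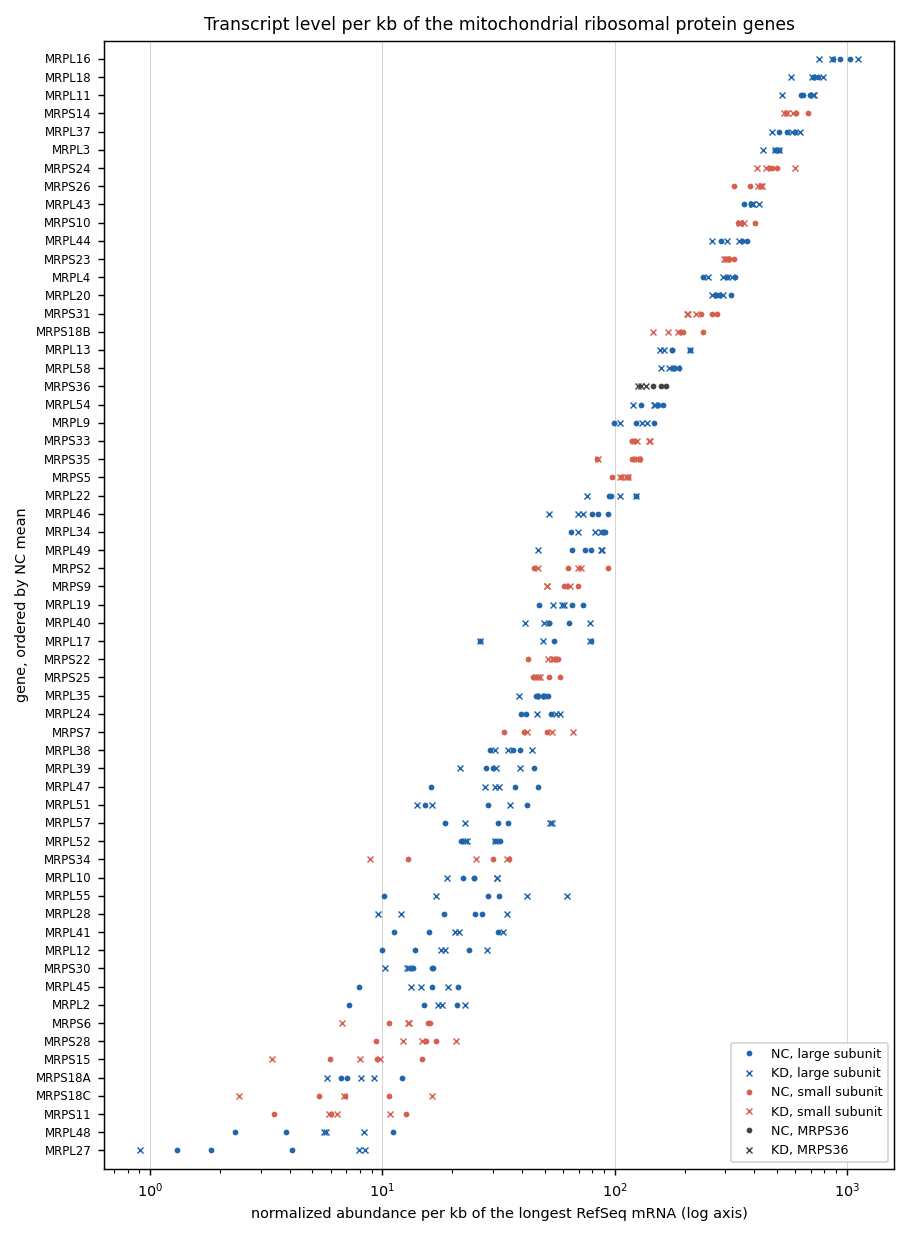
Each line is a gene and each symbol a library: normalized abundance per kb of the longest RefSeq mRNA on a log axis, with circles for the 3 NC and crosses for the 3 KD libraries, coloured by subunit. Levels spread over more than 2 orders of magnitude, from MRPL16 at the top to MRPL27 at the bottom, and both subunits occur along the whole range.

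The highest levels per kb belonged to MRPL16, MRPL18, MRPL11, MRPS14 and MRPL37. MRPL16 (ENSSSCG00000013118), which in ribosomes lies close to the tRNA sites of the large subunit, had 944 ± 80.0 per kb in NC (SD, n = 3). MRPL18, a protein of the central protuberance, had 729 ± 21.1 per kb, and MRPL11, at the base of the stalk that receives translation factors, had 658 ± 31.7 per kb. MRPS14, in the head of the small subunit, had 611 ± 68.9 per kb, and MRPL37, a mitochondria-specific large-subunit protein, had 555 ± 44.0 per kb. Of these neighbours, MRPL16 stood clear of MRPL18 by more than the SDs, whereas MRPL11, MRPS14 and MRPL37 followed each other within about 1 SD.

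Below them came MRPL3, of the large subunit near the peptidyl transferase centre, at 502 per kb (abundance 764 ± 15.2), and MRPS24, of the small subunit, at 478 ± 18.2 per kb. The gap between them was only slightly larger than their SDs, while MRPS26 (378 ± 49.2), MRPL43 (378 ± 14.6) and MRPS10 (364 ± 34.1) did not differ from each other. MRPL21, for which no length was matched, had an abundance of 166 ± 11.8 in NC and 171 ± 13.6 in KD.

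At the other end, the 5 lowest members that passed the filter of a mean of at least 10 were MRPL48, MRPS18C, MRPS18A, MRPS28 and MRPS6. MRPL48, another protein of the central protuberance, had 5.76 ± 4.71 per kb, and MRPS18C, the closest relative of bacterial S18, had 7.66 ± 2.76 per kb. MRPS18A, which despite its name sits in the large subunit, had 8.61 ± 3.06 per kb. MRPS28 and MRPS6, both of the small subunit, had 14.0 ± 4.03 and 14.1 ± 2.95 per kb. Only the step from MRPS18A to MRPS28 exceeded the SDs, the other neighbours in this order lay within them, and MRPL16 exceeded MRPL48 164-fold. RefSeq lists several mRNAs for some genes, and with the median instead of the longest length MRPS28 would have 24.1 and MRPS18C 14.7 per kb.

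The 4 members under the filter were all homologues of bacterial proteins and were not tested. MRPS12, which lies at the decoding centre, had normalized abundances of 4.80, 6.14 and 7.05 in NC and 3.75, 13.0 and 4.55 in KD. MRPS11, of the small-subunit platform, had 4.17, 7.30 and 15.4 in NC and 7.78, 7.18 and 13.2 in KD. MRPS15 had 9.31, 5.87 and 14.6 in NC and 9.64, 7.93 and 3.31 in KD. In all 3 genes the groups overlapped. MRPL27, a protein close to the peptidyl transferase centre, had 1.06, 1.48 and 3.31 in NC and 6.85, 0.734 and 6.45 in KD, a few reads in each library, so that no difference was detectable at this depth. MRPL27 carried ETS cores at 2 places in its promoter window and MRPL18 at 1. The NC level of MRPL27 was 2.41 ± 1.48 per kb and that of MRPL18 729 ± 21.1 per kb. This pair does not stand for the set. Over the 59 windows, the median NC abundance, not divided by length, was 163 with an ETS core and 131 without. A link between the motif and the level was not tested.

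Proteins that sit together in the ribosome did not have transcripts at like levels. Within the stalk, MRPL11 exceeded MRPL12, the protein that binds the translation factors, by 18.6 to 63.5-fold per kb in the 6 libraries, and MRPL10 had 24.0 ± 1.49 per kb in NC. In the central protuberance, where the porcine mitochondrial ribosome holds a tRNA in place of 5S rRNA, NC levels ran from 2.41 per kb (MRPL27) through 34.9 (MRPL38), 56.0 (MRPL40), 86.2 (MRPL46) and 183 (MRPL58) to 729 (MRPL18). MRPL58 is a peptidyl-tRNA hydrolase that has become a fixed part of the ribosome. Around the exit of the peptide tunnel, levels ran from 15.2 per kb for MRPL45, which helps to hold the ribosome at the inner membrane, through 33.3 (MRPL47), 44.7 (MRPL24), 53.4 (MRPL17) and 105 (MRPL22) to 338 (MRPL44).

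The 3 relatives of bacterial S18 were as uneven. MRPS18B, at 209 ± 26.7 per kb in NC, exceeded MRPS18A by 15.8 to 33.8-fold and MRPS18C by 10.4 to 77.9-fold in the 6 libraries. They occupy different places in the ribosome, MRPS18A in the large subunit and the other 2 in the small subunit. The head-to-head pair differed as well, with MRPL46 at 6.77 to 23.4 times the level of MRPS11 per kb. MRPS30, the other large-subunit protein with a small-subunit name, had 15.5 ± 1.73 per kb, but its longest RefSeq mRNA has 12970 bases for a coding sequence of 1302, and with the median mRNA length the value would be 36.0 per kb.

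After depletion of SIN3A the transcripts of the mitochondrial ribosomal proteins stayed close to their NC values. Genes were tested with limma on log2(value + 1), so that fold changes of low genes are understated, and p-values were adjusted over all 11986 genes tested by the Benjamini-Hochberg method. None of the 59 members tested was called at an adjusted p below 0.05 (lowest adjusted p = 0.997), in a fit that called 19 genes or 0.159% of all genes tested. At an unadjusted p below 0.05 there were 2 members, MRPS30 and MRPS31, both lower in KD (3.39% of the members, against 4.61% of all genes tested). The log2 fold changes ran from -0.52 (MRPL28) to 0.72 (MRPL55). Each library pooled the same number of 2-cell embryos in both groups. The values are relative to the other transcripts, because the spike-in mRNAs named in the labels were not used here. A change in the total RNA per embryo was therefore not tested.

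The precision of the data sets how closely equality can be stated. For 31 of the 59 members the 95% interval of the fold change lay within 1.5-fold in either direction, and for 47 within 2-fold. Among the 32 members with a mean of at least 100, these counts were 29 and 32. All the intervals that crossed 2-fold therefore belonged to members with a mean under 100, whereas at a mean of at least 100 the median coefficient of variation among NC libraries was 8.28%. The members with the largest fitted changes were low ones with overlapping groups. MRPL55, a large-subunit protein with a bacterial homologue, had 22.9, 7.31 and 20.5 in NC and 30.2, 12.2 and 45.0 in KD, with a log2 interval of -0.37 to 1.80. MRPL28, also of the large subunit, had 27.8, 40.5 and 37.6 in NC and 51.7, 18.1 and 14.4 in KD, so that KD 1 was the highest and the other KD libraries the lowest of the 6.

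The most abundant members per kb were measured far more closely. For MRPL16, with 984, 923 and 1091 in NC and 1188, 799.9 and 914 in KD, the groups overlapped and the log2 interval was -0.34 to 0.21. MRPS14, with 2001, 1767 and 1599 in NC and 1724, 1563 and 1611 in KD, had an interval of -0.34 to 0.09. MRPL37 had 804, 868 and 741 in NC, 838, 910.5 and 689 in KD and an interval of -0.25 to 0.26, centred close to 0. MRPL18, with 681, 686 and 718 in NC and 753, 548 and 674 in KD, and MRPL11, with 595, 611 and 653 in NC and 680.4, 676 and 495 in KD, had more spread in KD than in NC. Their log2 intervals were -0.35 to 0.17 and -0.30 to 0.25.

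**Figure D2:**
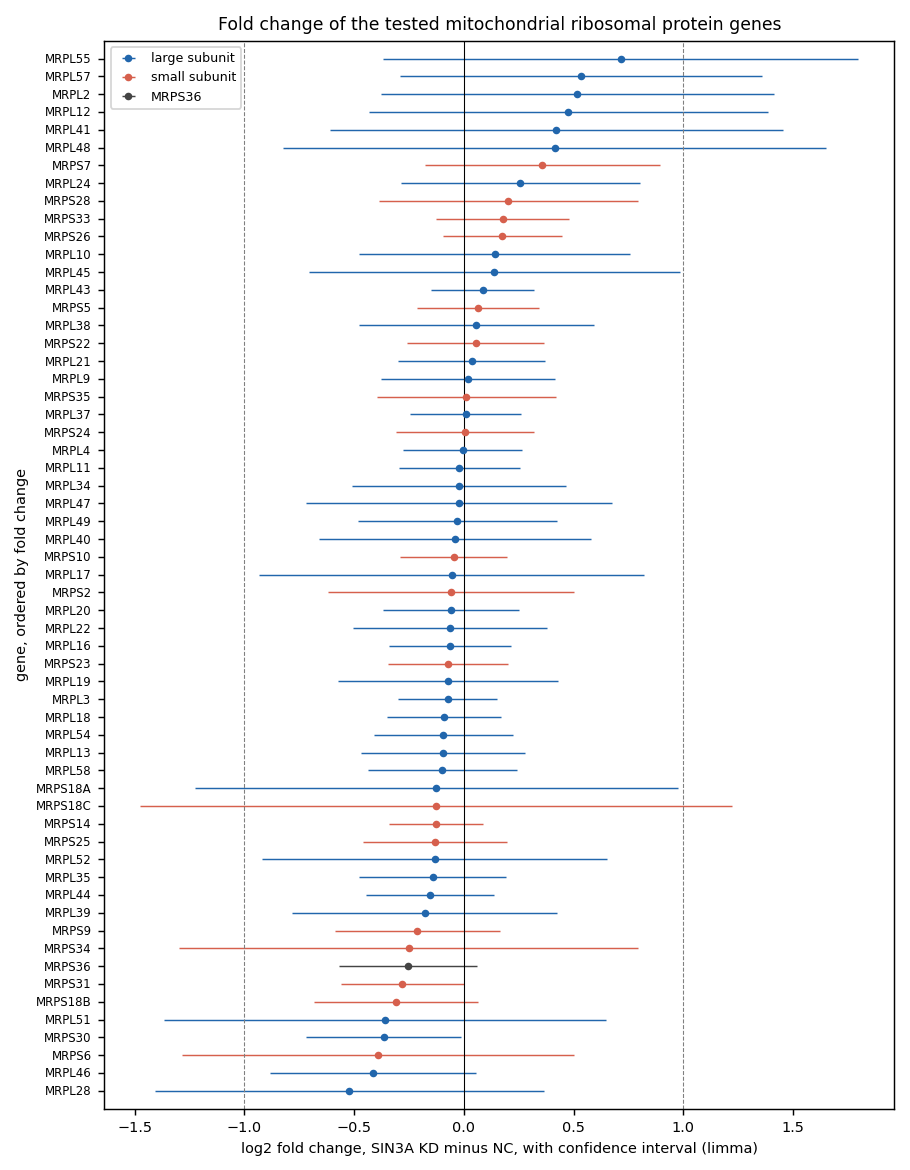
Log2 fold change of KD against NC for the 59 members tested (points, coloured by subunit) with its 95% interval from limma. The dashed lines mark 2-fold, and all the intervals that reach past them belong to members with a mean under 100. The points run from -0.52 to 0.72.

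For 8 members the groups did not overlap, which means that the KD libraries lay entirely above or entirely below the NC libraries. KD was lower for 6 of the 59 (10.2%, against 4.94% of all genes tested) and higher for 2 (3.39%, against 4.85%). All 7 of the ribosomal proteins among these 8 were counted as mitochondria-specific: 7 of 27 such members, and 0 of 31 with a bacterial homologue. MRPS18B, which is among these 7, was counted so although it is a relative of bacterial S18. The split depends on that choice only in part, since no other of these 7 is a relative of S18. Not divided by length, the median NC abundance was 163 for members specific to mitochondria and 71.7 for those with a bacterial homologue. Per kb the order was the other way, at 56.0 and 61.9. The difference between the counts of 7 and 0 was not tested. An exact two-sided permutation test of 3 against 3 libraries gives 0.1 for each of the 8, the smallest p it allows. Among 56 nuclear-encoded oxidative phosphorylation subunits tested, KD was lower without overlap for 6 and higher for 1. Among 36 cytosolic ribosomal protein genes tested, it was lower for 1 and higher for 1.

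MRPS30 (ENSSSCG00000032275, chr16:29110736-29200865, plus strand, 5 exons) encodes a mitochondria-specific protein of the large subunit. Its abundance was 175, 215 and 213 in NC and 166, 133 and 169 in KD. KD 3 came within 6 units of NC 1, the lowest control library, and KD 2 was the lowest of all. The log2 fold change was -0.36 (SE 0.17, 95% interval -0.72 to -0.01, unadjusted p = 0.0436 and adjusted p = 0.997 from limma).

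MRPS31 (ENSSSCG00000009372, chr11:15450698-15472320, minus strand, 8 exons) encodes a mitochondria-specific protein of the small subunit. Its abundance was 349.5, 368 and 313 in NC and 299, 273 and 275 in KD, with NC 3 and KD 1 closest to each other. The log2 fold change was -0.28 (SE 0.13, 95% interval -0.56 to -0.00, unadjusted p = 0.0489 and adjusted p = 0.997 from limma). With 1 library left out, the unadjusted p ran up to 0.181 for MRPS30, which exceeded 0.05 without NC replicate 2 or 3 or KD replicate 2, and from 0.0359 (without NC replicate 3) to 0.164 for MRPS31.

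MRPL46 (chr1:191321990-191331320) showed the lowest KD mean of the non-overlapping members relative to NC. It had 80.8, 85.4 and 95.0 in NC and 52.7, 70.5 and 73.8 in KD, 75.4% of the NC mean. Its log2 fold change was -0.41 (SE 0.22, 95% interval -0.88 to 0.06, unadjusted p = 0.0811). MRPS11, the gene that shares its promoter region, was too low to compare. MRPS18B, on chromosome 7, had 186, 148 and 153 in NC and 133, 113 and 146 in KD, where the highest KD value was 2 units below the lowest NC value (log2 fold change -0.31, SE 0.18, 95% interval -0.68 to 0.06).

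MRPS36 lay 38026 bases from CCNB1 on chromosome 16, on the same strand. CCNB1, the cyclin that the study followed up, had 8891, 9039 and 7729 in NC and 2113, 974 and 2171 in KD (log2 fold change -2.37, adjusted p = 1.36e-05 from limma, and 0.423 without a variance trend). MRPS36 itself had 228, 199.6 and 216 in NC and 177, 187 and 173 in KD. All the KD values were below all the NC values, but the interval of the fold change included 0 (log2 fold change -0.26, SE 0.15, 95% interval -0.57 to 0.06, unadjusted p = 0.104). MRPS23, of the small subunit, was the least changed of the lower genes, with 293, 289.8 and 309 in NC and 286, 279 and 283 in KD (log2 fold change -0.07, SE 0.13).

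In the other direction, MRPS33, of the small subunit, had 201, 208 and 202 in NC and 241, 212 and 239 in KD. Its log2 fold change was 0.18 (SE 0.14, 95% interval -0.13 to 0.48). MRPL43, of the large subunit, had 522, 487 and 521 in NC and 533, 563 and 528 in KD, a log2 fold change of 0.09 (SE 0.11). In both genes the gap between the groups was smaller than the range within a group.

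**Figure D3:**
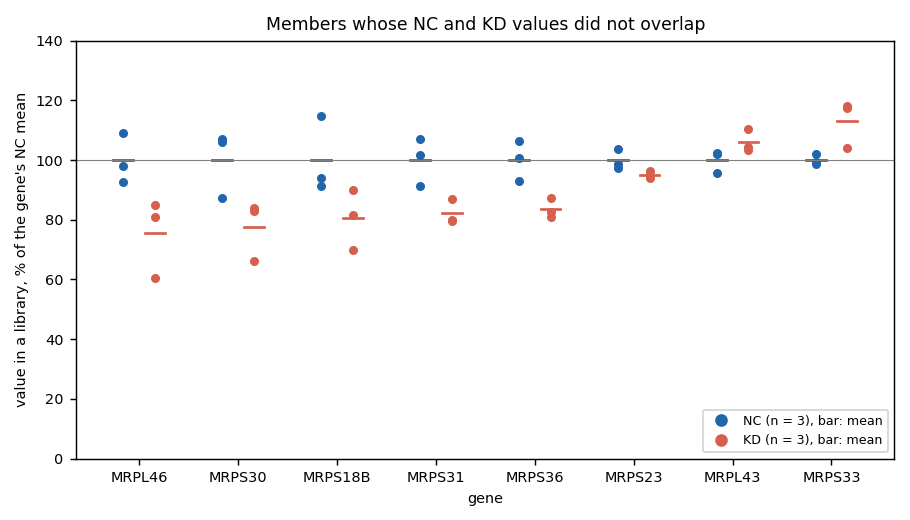
Abundance in each library as a percent of the gene's NC mean for the 8 members whose NC values (blue) and KD values (orange) did not overlap. The bars mark the means of 3 libraries, which in KD ran from 75.4% for MRPL46 to 113% for MRPS33, and the axis starts at 0.

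By structural group, 0 members were called and at most 1 in a group did not overlap. In the stalk, MRPL12 had 10.4, 24.8 and 14.6 in NC and 19.5, 18.7 and 29.6 in KD, with overlapping groups and a log2 interval of -0.43 to 1.38. The other stalk members, MRPL10 and MRPL11, had log2 fold changes of 0.14 and -0.02. Of the 6 tunnel-exit members, 4 had a log2 fold change below 0, from -0.16 (MRPL44) to 0.26 (MRPL24). Of the 6 tested members of the central protuberance, 4 were below 0, from -0.41 (MRPL46) to 0.41 (MRPL48). The 3 relatives of S18 were all below 0, at -0.13 (MRPS18A, 95% interval -1.23 to 0.98), -0.13 (MRPS18C, -1.47 to 1.22) and -0.31 (MRPS18B). For MRPS18C and MRPS18A the intervals span more than 2-fold in both directions or nearly so, and these data do not fix their direction.

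As a whole, the members leaned slightly downwards in KD. Of 59 members, 37 (62.7%) had a log2 fold change below 0, against 49.4% of all genes tested, and the median was -0.055, against 0.003. It was -0.041 for the large and -0.059 for the small subunit. A like lean was present in 2 other gene sets. Below 0 were 21 of 36 cytosolic ribosomal protein genes (58.3%, median -0.055). The same held for 33 of 56 nuclear-encoded oxidative phosphorylation subunits (58.9%, median -0.072). The lean of the members rested on the third KD library. Without it 29 of 59 members were below 0 and the median was 0.020, whereas without any other single library the median stayed between -0.074 and -0.041. Counted over members with a mean of at least 100, 22 of 32 were below 0, with a median of -0.063.

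The summed abundance of the 63 members was 14171, 14004 and 13953 in NC and 14052, 13540.2 and 13154 in KD, so the groups overlapped. As a share of the summed table it was 0.125%, 0.123% and 0.126% in NC and 0.122%, 0.119% and 0.118% in KD, where each KD library was below each NC library. The sum weighs abundant members most: the 5 highest made up 37.2% of it in NC, and MRPS14 alone 12.7%. The library medians of the members, each gene taken relative to its NC mean, were 0.028, -0.018 and 0.023 in NC and 0.025, 0.004 and -0.046 in KD on the log2 scale. KD 3 was also the lowest library for 36 cytosolic ribosomal protein genes (-0.234) and for 56 nuclear-encoded oxidative phosphorylation subunits (-0.231), while its median over all genes tested was 0.001. These 2 sets were above 0 in KD 1, at 0.141 and 0.042, and below 0 in KD 2, at -0.034 and -0.088. The part of KD 3 in the lean of the members beyond these values was not tested.

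**Figure D4:**
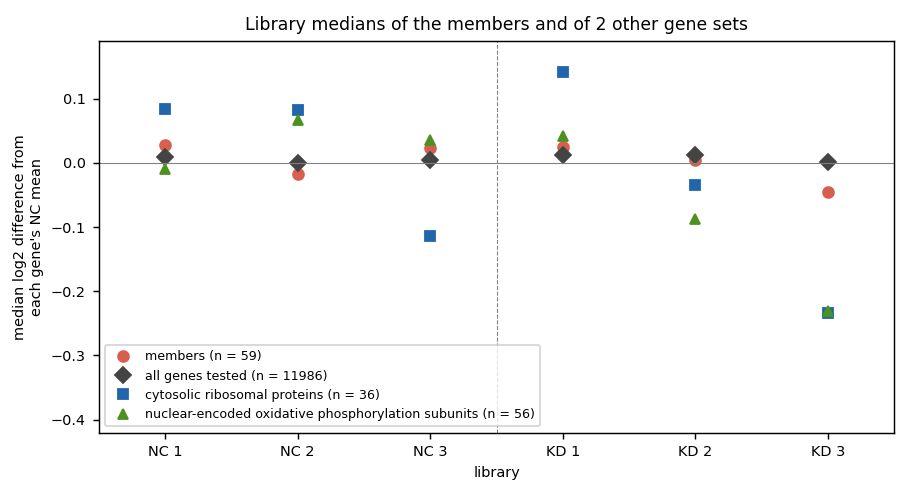
Median log2 difference from each gene's NC mean in the 6 libraries (x axis) for the members, all genes tested, cytosolic ribosomal protein genes and nuclear-encoded oxidative phosphorylation subunits. The members stay between -0.046 and 0.028, while in KD 3 both other gene sets lie below -0.2.

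Rows without a symbol in the table included 6 that RefSeq names as mitochondrial ribosomal proteins by their identifier, which the symbol rule left out. MRPL15 had 1386, 1218 and 1288 in NC and 1282, 1035 and 1122 in KD (log2 fold change -0.18, unadjusted p = 0.104). MRPL50 had 93.9, 111 and 105 in NC and 82.7, 84.9 and 89.9 in KD (log2 fold change -0.26, unadjusted p = 0.193), and only here among the 5 tested did the groups not overlap. MRPS27, MRPL33 and MRPL36 had log2 fold changes of -0.09, -0.20 and -0.26, so all 5 tested were below 0 and none was called. The sixth, MRPL30, was under the filter and went the other way without overlap, with 7.32, 7.34 and 5.08 in NC and 8.77, 9.40 and 12.0 in KD. A few core proteins of the ribosome carry other symbols, and of 5 found none was called, from -0.35 for DAP3, a GTP-binding protein of the small subunit, to 0.54 for CHCHD1.

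The genes around the ribosome gave the same count of calls, 0 in every list. Of 18 assembly factors tested, 10 were below 0. MTERF3, which acts in the maturation of the large subunit, had 523, 573 and 611 in NC and 513, 467 and 436 in KD (log2 fold change -0.27, unadjusted p = 0.0369), without overlap. MTERF4, which takes a methyltransferase to the large subunit, was at the other end, with a log2 fold change of 0.59 and overlapping groups. Of 15 translation factors tested, 10 were below 0, with MTRF1, a release factor family member, lowest at -0.55 (unadjusted p = 0.0446) and MTIF2, an initiation factor, highest at 0.32. Without NC replicate 2, 7 of the 15 were below 0 and the median moved from -0.106 to 0.010. Of 14 tRNA synthetases and amidotransferase subunits, 6 were below 0, from -0.58 (FARS2) to 0.86 (VARS2), with a median of 0.033. Without KD replicate 2, 11 of the 14 were below 0 and the median was -0.065.

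Of the machinery that transcribes mitochondrial DNA, all 4 genes tested had a log2 fold change above 0, from 0.18 (TFAM) to 1.43 (TFB2M), with a median of 0.278. The direction depended on single libraries, since without KD replicate 3 only 3 were tested, 1 of them was below 0 and the median was 0.005, and without NC replicate 2 1 of 4 was below 0. MTERF1, under the filter, had 4.11, 12.8 and 6.45 in NC and 1.05, 6.21 and 6.69 in KD, with overlapping groups. TFB2M, the factor that opens mitochondrial promoters, had only 4.36, 6.11 and 8.14 in NC and 15.3, 9.93 and 37.1 in KD (unadjusted p = 0.0234, adjusted p = 0.997 from limma), so its groups did not overlap but rested on few reads. Among 6 tested nuclear regulators of mitochondrial genes, PPARGC1A was highest at 0.73, carried by 31.5 in KD 3 against 5.98 and 6.93 in the other KD libraries, and PPARGC1B was lowest at -0.50.

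The mitochondrial ribosome translates the transcripts of 13 protein-coding genes of mitochondrial DNA. All 13 were below 0 in the comparison, with a median log2 fold change of -0.072 and none called. Their transcripts are cut from common precursors, and the annotated ND4L and ATP8 overlap the starts of ND4 and ATP6. The 13 values are therefore not independent. ND4L, a subunit of complex I, had 2159, 2103 and 2021 in NC and 1769, 1762 and 1751 in KD (log2 fold change -0.25, unadjusted p = 0.0109, adjusted p = 0.852 from limma). ND3, of the same complex, had 2350.0, 2478 and 2261 in NC and 2001, 2041 and 2086 in KD (log2 fold change -0.21, unadjusted p = 0.0281). In the other 11 the groups overlapped. Among them were ND4, which overlaps ND4L, at a log2 fold change of -0.08, and ND1, closest to 0 at -0.02. Together they made up 3.69%, 3.71% and 3.30% of the table in NC and 3.34%, 3.35% and 3.56% in KD. With quantile normalization 12 of 13 were below 0, and with 1 library left out 11 to 13. The median lay at -0.029 without NC replicate 1, -0.026 without NC replicate 2 and -0.116 without NC replicate 3, so its size depended on the control libraries.

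**Figure D5:**
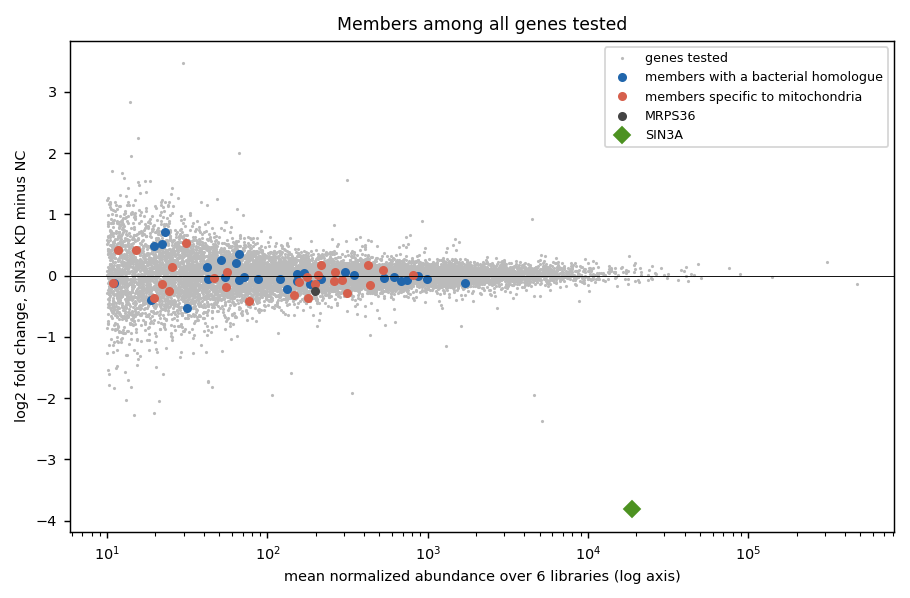
Log2 fold change of KD against NC (y axis) over the mean normalized abundance of 6 libraries (x axis, log) for 11986 genes tested in grey, the members by origin, and SIN3A. All 59 members lie within the band of the other genes at their abundance, between -0.52 and 0.72, whereas SIN3A lies at -3.81.

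The labels held for the targeted gene and for the tissue. SIN3A had 37361, 33964 and 32404 in NC and 3271, 1079 and 4173 in KD (log2 fold change -3.81, adjusted p = 8.45e-06 from limma, and 0.423 without a variance trend, where 0 of all genes were called and 622 had an unadjusted p below 0.05). Of 13 oocyte and early embryo markers 10 were found, with NC means of 419 to 21467. Of 14 cumulus and granulosa cell markers 10 were found, 6 of them under the filter, and their summed abundance was 217 to 296 in NC and 195 to 233 in KD. AMHR2, of granulosa cells, was listed at 0 in NC and at 3.30 in KD 3. The 4 that passed the filter were VIM (NC mean 122), FST (59.9), COL1A2 (38.2) and INHBA (14.9). The depth was estimated from the commonest value above 0 in each library, with the read count of that value assumed. It came to 7820000 to 15850000 reads. Only 23.5% to 52.0% of the low values lay on the resulting step, so these depths are rough. The replicates, which the study calls independent, give p-values for the spread between these pools of embryos.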

How the data were processed

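The 6 libraries were grouped by their sample labels into 3 NC and 3 SIN3A KD replicates. Reads had been assigned by the authors to Sscrofa11.1 transcripts with Salmon 0.14.1, and DESeq2 is named in the submitters' processing notes. The deposited table holds a normalized signal for each Ensembl gene. Since these are not whole reads, limma (version 3.58.1, R 4.3.3) was fitted to log2(value + 1) for genes averaging 10 or more, letting the prior variance follow the mean, and the p-values of all tested genes were adjusted by the Benjamini-Hochberg method. The fit was tested on simulated data. Low values are the least precise. RefSeq matched 62 members and gave lengths, positions and promoter windows.

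The members and gene lists were chosen with earlier results of these data known. Named members were those at an unadjusted p below 0.05, the 5 highest and 5 lowest tested per kb, the largest non-overlapping changes, fixed structural groups, MRPS36 and members under the filter. MRPL28, MRPL55, MRPS23, MRPL21, MRPL3, MRPS24, MRPS26, MRPS10 and the rows without symbols were named after their values were seen. Of the other lists (assembly, translation factors, tRNA synthetases, mitochondrial DNA transcription and messenger RNAs, nuclear regulators, core proteins with other names) the largest rise and fall were named, with members at an unadjusted p below 0.05 added after seeing them. As alternatives, the pseudocount was set to 0.1 or 10, the filter was dropped or raised to 100, values were rescaled by a TMM-like factor or by quantiles, the variance trend was left out, a replicate block was added, each library was omitted in turn, and the median mRNA length was used. Python 3.11.15, numpy 2.4.6, pandas 2.3.3, scipy 1.17.1 and matplotlib 3.10.9 served for the other steps.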

Additional observations from a re-analysis of the deposited data

How the results depend on the processing

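No member and no gene of the pathway lists was called in any alternative. The count of members at an unadjusted p below 0.05, 2 as reported, was 1 with a pseudocount of 10, TMM-like rescaling or quantile normalization, 4 without a variance trend, and 0 to 2 with 1 library left out (0 without NC replicate 2). The members with groups that did not overlap, 8 as reported, were 10 to 17 when a library was left out. Fewer values then have to be apart, and the counts over all genes, 592 lower and 581 higher of 11986, rose too. Without NC replicate 1, KD was lower for 6 and higher for 4 of 60 members, against 1133 and 1257 of 12030 genes. Without NC replicate 2 it was lower for 13 and higher for 4 of 59 members, against 1117 and 1063 of 11985 genes. The median log2 fold change of the members was -0.074 to 0.020 with 1 library left out, and above 0 only without KD replicate 3. Without a variance trend 0 of all genes were called instead of 19 (622 at an unadjusted p below 0.05), and the adjusted p was 0.423 for both SIN3A (log2 fold change -3.81) and CCNB1, whose alternatives were added after seeing the data. For SIN3A leaving out a library gave -4.20 to -3.22. With the median mRNA length the NC level of the members was 67.2 per kb instead of 61.9.

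With the replicate block, 1 member (MRPS30) had an unadjusted p below 0.05, and 26 genes were called among all genes instead of 19. Deviations of same-numbered libraries correlated at 0.109, 0.111 and 0.0872, and each library correlated best with its own number, which is a hint from the data and not from the design.

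Of 36 named members tested, 17 changed sign when a library was left out, all of them uncalled. Their log2 fold changes then ran from -0.10 to 0.13 (MRPL11), -0.22 to 0.063 (MRPL16), -0.49 to 0.35 (MRPL17), -0.19 to 0.036 (MRPL18), -0.025 to 0.089 (MRPL21), -0.21 to 0.13 (MRPL22), -0.079 to 0.12 (MRPL37), -0.083 to 0.17 (MRPL38), -0.30 to 0.15 (MRPL40), -0.25 to 0.43 (MRPL45), -0.47 to 0.28 (MRPL47), -0.030 to 0.51 (MRPL48), -0.10 to 0.029 (MRPS10), -0.27 to 0.050 (MRPS18A), -0.33 to 0.49 (MRPS18C), -0.16 to 0.12 (MRPS24) and -0.053 to 0.37 (MRPS28). With a pseudocount of 10, MRPS18C was at 0.0033. The cause of these changes was not tested. MRPL28 and MRPL55 kept their sign, at -1.06 to -0.18 and 0.23 to 1.22. The 12 members whose intervals reached past 2-fold all had a mean under 100.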
